A study of Mus musculus with 30 samples.

Results

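Oncofetal liver genes are genes that are active in the fetal liver, fall silent after birth and often return in liver tumours. Those described here came from a list of 8 such genes: Afp, Gpc3, H19, Igf2, Dlk1, Golm1, Ly6d and Cd24a. For each gene the values come from the probe set (the group of array probes for 1 transcript) that names only that gene and was the brightest on average over the 30 arrays. This left 6 of the 8 genes, out of 17097 genes on the array. H19, a long noncoding RNA, and Gpc3, a heparan sulphate proteoglycan of the cell surface, are named on no such probe set and were not analysed here.

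The study measured gene expression in liver from 30 mice, with 1 array per mouse. All of the diet groups were fed CD-HFD, a diet used to model fatty liver disease that progresses to hepatocellular carcinoma (HCC), and their liver was sampled outside tumours. Healthy mice (5) ate chow and are also labelled as given vehicle. Vehicle mice on CD-HFD were divided by the labels into those that developed neither HCC nor fibrosis (5) and those that developed both (4), and the remaining mice received sulindac (10) or aspirin together with clopidogrel (6) as prevention. Sulindac and aspirin inhibit cyclooxygenases, and clopidogrel blocks a platelet receptor for ADP. Strain, age, sex, dose and time on the diet were not given in the sources used here. Mice keep the names of their titles: Hlth stands for a healthy mouse, Veh_low for a vehicle mouse that had no HCC, Veh_high for a vehicle mouse that had it, and Sulin and AspClo for the drug arms.

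The liver of the embryo secretes alpha-fetoprotein (Afp) and grows under the insulin-like growth factor Igf2. These genes are shut off within weeks of birth by repressors and by changes in chromatin, and their return marks tumours and, for some of them, regenerating or biliary cells. Afp is the classical serum marker of HCC, Dlk1 is a membrane protein of hepatoblasts encoded at an imprinted locus, and Golm1 is a Golgi membrane protein of biliary cells that hepatocytes also make in disease. Ly6d and Cd24a are small proteins held in the membrane by a lipid anchor; both are also antigens of the B cell lineage, and Cd24a is one of biliary cells and granulocytes as well.

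Values are log2 of the array intensity. The median intensity of an array lay between 24.1 and 24.6 and the lowest between 13.8 and 14.8. The median gene had a mean of 4.90, and Afp (4.80), Igf2 (4.64), Dlk1 (4.44) and Golm1 (4.86) lay below it, where a low signal and none are hard to tell apart. Levels of different probe sets are not comparable with each other. Over the genes at or above that median, 4 of the 14 healthy and vehicle arrays lay nearer the other of these groups than their own: Hlth_1798, Hlth_1807, Veh_low_794 and Veh_low_1819. The labels were followed, and whether samples were exchanged between these groups was not tested, so the healthy and vehicle values of Ly6d, Cd24a and Golm1 carry that doubt. Many of the changes that the 4 arrays altered, though not all, are given with and without them. The 4 were chosen from measured levels, with Ly6d and Cd24a among the genes used. Leaving them out thus widens the gap between healthy and vehicle mice by construction. It also shifts the healthy and vehicle means that the drug arms are compared with, and the spread. Calls made without these 4 arrays are not independent evidence. The hepatocyte markers (albumin, transthyretin and 8 others) were bright in every mouse, with a summed intensity from 74152 to 84613. In pieces of whole liver, fewer cells of a type and less RNA per cell cannot be told apart.

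The 6 genes divided by how much they varied between mice. Ly6d spanned a 107-fold range over the 30 mice (SD 1.82, the 16th largest of 17097 genes), and Cd24a spanned 20.2-fold (SD 0.88, the 130th largest). Golm1 spanned 2.40-fold. Afp spanned 1.46-fold, Dlk1 1.36-fold and Igf2 1.31-fold, against 1.45-fold for the median gene. Most of the spread of Ly6d and Cd24a lay within groups: the SD around the group means was 1.74 for Ly6d, the 7th largest of all genes, and 0.92 for Cd24a, the 85th largest.

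None of the 6 genes passed the threshold (limma, Benjamini-Hochberg adjusted p under 0.05 over 17097 genes) in any of 9 comparisons between groups, and none did in the F test over the 5 groups. The share of all genes that passed was 0.0117% for vehicle against healthy, 0.0877% for vehicle with against without HCC, 0.199% for sulindac against vehicle, 1.96% for aspirin with clopidogrel against vehicle and 0.877% for aspirin with clopidogrel against sulindac. It was 0% for vehicle without HCC against healthy (0 genes, with 909 at an unadjusted p under 0.05), 0.0994% for vehicle with HCC against healthy, 2.98% for sulindac against healthy, 2.77% for aspirin with clopidogrel against healthy and 3.97% in the F test. With so few genes called, 0 of 6 is near the background in each comparison. At an unadjusted p under 0.05 there was 1 gene of the 6, Golm1, in vehicle with HCC against healthy, where 9.26% of all genes were below it, and in aspirin with clopidogrel against healthy, where 14.8% were. These counts too are near the background. In exact permutation tests of the mice, two-sided, the smallest p of the 54 tests was 0.0509, for Ly6d. Comparisons that use the same healthy or vehicle mice are not independent of each other.

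The direction of the 6 genes was mixed. Against vehicle, 4 were higher with sulindac (median change 0.01, against 0.01 over all genes) and 2 were higher with aspirin and clopidogrel (median change -0.05, against 0.00172 over all genes). All 6 had a lower mean with aspirin and clopidogrel than with sulindac (median change -0.10, against -0.00280), where 51.7% of all genes were lower, and none of these differences passed the threshold. In vehicle mice with HCC, 3 were higher and 3 lower than in vehicle mice without HCC.

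Ly6d, the most variable of the 6, had values in healthy mice of 4.78 in Hlth_1965, 5.49 in Hlth_1804, 6.61 in Hlth_1968, 10.29 in Hlth_1807 and 11.52 in Hlth_1798. The healthy group thus held both the lowest and the highest values of the study. In vehicle mice without HCC it was 5.72 in Veh_low_794, 6.05 in Veh_low_1819, 7.99 in Veh_low_2091, 9.47 in Veh_low_1825 and 10.59 in Veh_low_1810. In vehicle mice with HCC it was 9.49 in Veh_high_1831, 9.74 in Veh_high_798, 9.86 in Veh_high_2088 and 10.25 in Veh_high_1770. These last 4 mice lay close together and at the upper end, inside the range of the mice without HCC. Sulindac mice ran from 6.00 (Sulin_16) through a median of 8.38 to 10.67 (Sulin_15), and mice given aspirin with clopidogrel from 6.06 (AspClo_58) through 6.70 to 8.73 (AspClo_61).

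**Figure D1:**
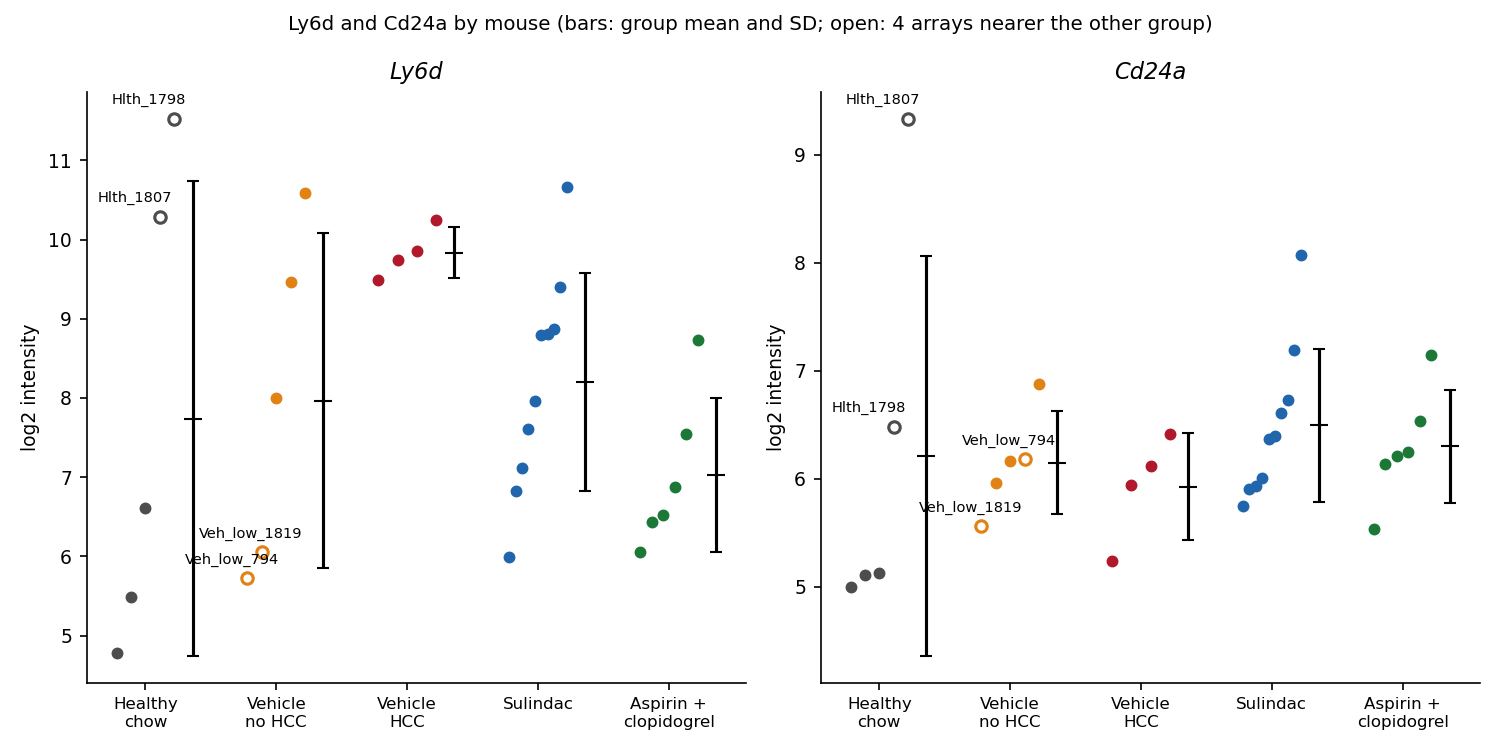
Log2 intensity of Ly6d (left) and Cd24a (right) in each mouse by group, with the group mean and SD as bars; open circles are the 4 healthy and vehicle arrays that lay nearer the other group. For Ly6d the vehicle mice with HCC sit together between 9.49 and 10.25 while healthy mice run from 4.78 to 11.52, and for Cd24a mouse Hlth_1807 stands at 9.33 above all others.

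The order of the Ly6d group means was aspirin with clopidogrel 7.03 ± 0.97 (SD, n = 6), healthy 7.74 ± 3.0 (n = 5), vehicle without HCC 7.96 ± 2.11 (n = 5), sulindac 8.20 ± 1.37 (n = 10) and vehicle with HCC 9.83 ± 0.32 (n = 4). No neighbours in this order differed beyond their spread (limma, adjusted p = 0.824, 0.997, 0.956 and 0.811). The SD of the vehicle mice with HCC was the smallest of the 5 groups and that of the healthy mice the largest; the difference in spread was not tested.

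Over the 9 vehicle mice the Ly6d mean was 8.80 ± 1.80 (SD). With aspirin and clopidogrel the change from vehicle was -1.77 (SE 0.88, 95% interval -3.57 to 0.03, or 3.41-fold lower, n = 6 against 9), with limma's adjusted p = 0.352 and an exact permutation p = 0.0509. With sulindac the change from vehicle was -0.59 (SE 0.76, 95% interval -2.16 to 0.98, limma's adjusted p = 0.858). Between the drug arms it was -1.18, aspirin with clopidogrel minus sulindac (SE 0.86, interval -2.94 to 0.59, adjusted p = 0.695). Vehicle against healthy differed by 1.06 (SE 0.93, interval -0.85 to 2.96, adjusted p = 0.924), and vehicle with against without HCC by 1.87 (SE 1.12, interval -0.42 to 4.16, adjusted p = 0.668). Each of these intervals includes 0 and also differences of several-fold.

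Set against vehicle mice with HCC alone, a comparison chosen after the values were seen, the mice given aspirin with clopidogrel did not overlap: their highest Ly6d value was 8.73 and the lowest with HCC was 9.49. The change was -2.81 (SE 1.07, interval -5.01 to -0.60, or 7.0-fold lower), with limma's adjusted p = 0.231. The SE, interval and this p rest on the spread shared by all 5 groups (SD around the group means 1.74). The SDs of the groups compared were 0.97 with aspirin and clopidogrel and 0.32 in vehicle with HCC. The exact permutation p was 0.00476, the smallest that 6 against 4 mice allow, and 0.286 after adjustment over 60 such tests. Of all genes, 3.49% did not overlap between these groups, 1.64% in this direction, and 0.918% passed the adjusted threshold. With the 4 arrays named above left out of the fit, which alters this comparison only through the spread shared by the groups and the adjustment, the adjusted p was 0.0289, with 2.66% of genes called.

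Without Hlth_1798, Hlth_1807, Veh_low_794 and Veh_low_1819 the picture of Ly6d changed. These were the highest healthy mice and the lowest vehicle mice for Ly6d, and Ly6d was among the genes used to choose them. Leaving them out raised the vehicle mean from 8.80 to 9.63 and lowered the healthy mean from 7.74 to 5.63. The drug arms are compared with these means, so the calls that follow are not independent evidence. In the F test Ly6d was the 1 gene of the 6 to pass (limma, adjusted p = 0.00509, with 10.5% of all genes called). The 3 healthy mice left (4.78 to 6.61) lay below all 7 vehicle mice left (7.99 to 10.59), and 9.83% of all genes likewise lay apart, 5.51% in that direction. Vehicle then exceeded healthy by 4.00 log2 units, or 16-fold (limma, adjusted p = 0.00182, with 5.61% of genes called), against 1.06 with all arrays. Aspirin with clopidogrel against vehicle moved from -1.77 to -2.60 (adjusted p = 0.0113, 4.79% called) and sulindac against vehicle from -0.59 to -1.42 (adjusted p = 0.236, 0.836% called). Between the drug arms it stayed at -1.18 (adjusted p = 0.361, 2.01% called). Against healthy, the change became 3.72 for vehicle without HCC (adjusted p = 0.0204, 2.95% called), 4.21 for vehicle with HCC (adjusted p = 0.00294, 5.01% called) and 2.58 for sulindac (adjusted p = 0.0246, 7.76% called). For aspirin with clopidogrel against healthy it turned from -0.71 to 1.40 and stayed short of the threshold (adjusted p = 0.345, 5.43% called). Vehicle with against without HCC went from 1.87 to 0.48 (adjusted p = 0.932, 0.0819% called).

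**Figure D2:**
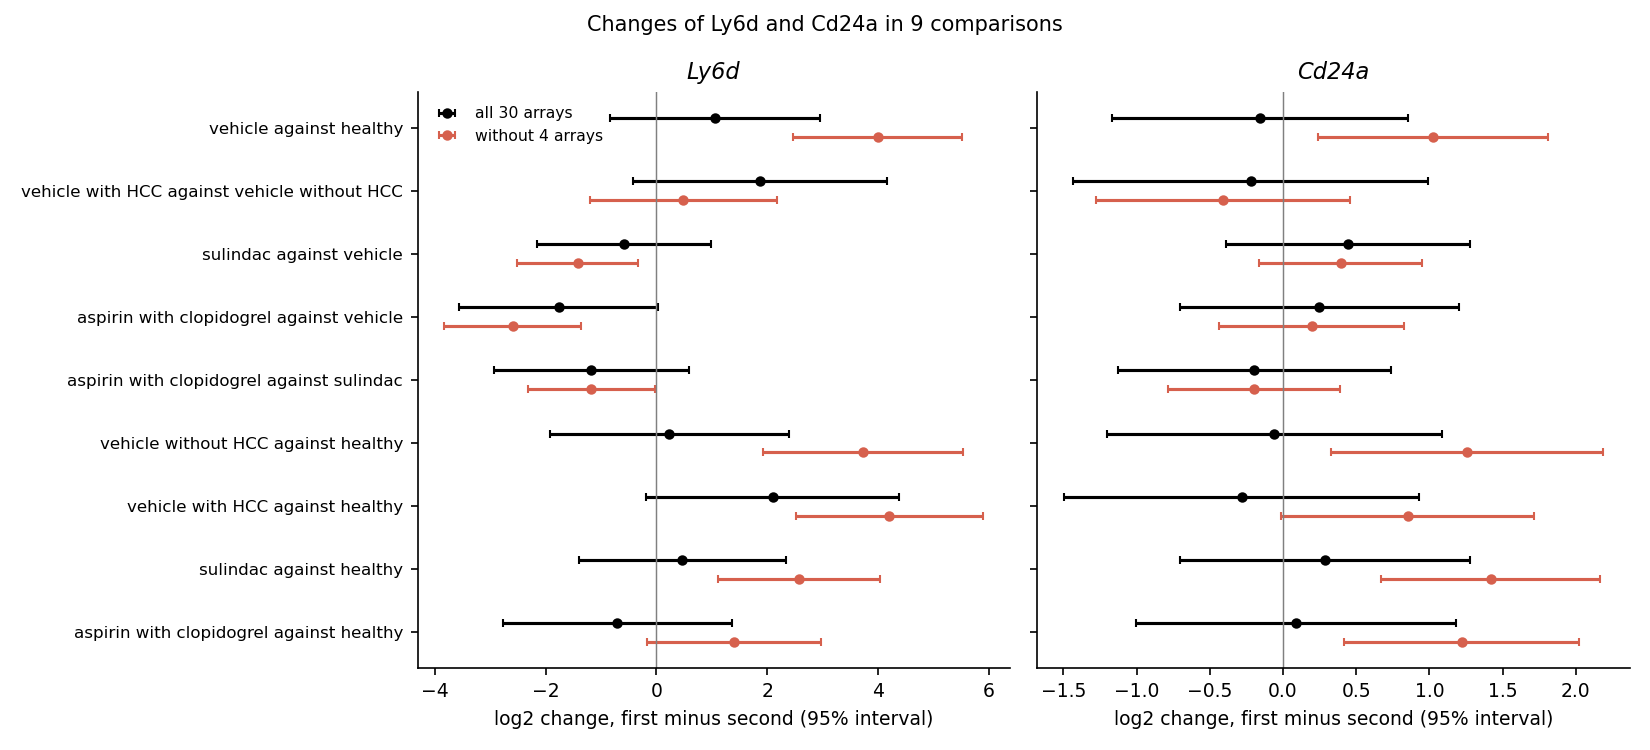
Difference in mean log2 intensity of Ly6d (left) and Cd24a (right) in the 9 comparisons, first group minus second, with 95% intervals, from all 30 arrays (black) and without the 4 arrays that lay nearer the other group (red). With all arrays each interval spans 0. Without the 4 arrays Ly6d is 4.00 higher in vehicle than in healthy mice and Cd24a is 1.42 higher with sulindac than in healthy mice. The 4 were chosen from measured levels, with both genes among those used.

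Cd24a was set apart by 1 healthy mouse. Its values in healthy mice were 5.00 in Hlth_1804, 5.11 in Hlth_1968, 5.13 in Hlth_1965, 6.48 in Hlth_1798 and 9.33 in Hlth_1807. Vehicle mice without HCC had 5.56 (Veh_low_1819), 5.96 (Veh_low_2091), 6.17 (Veh_low_1810), 6.18 (Veh_low_794) and 6.88 (Veh_low_1825), and those with HCC had 5.24 (Veh_high_1831), 5.94 (Veh_high_798), 6.12 (Veh_high_2088) and 6.41 (Veh_high_1770). Sulindac mice ran from 5.75 (Sulin_18) through 6.38 to 8.08 (Sulin_15), and mice given aspirin with clopidogrel from 5.53 (AspClo_60) through 6.23 to 7.14 (AspClo_64). The 3 lowest values of all belonged to healthy mice and so did the highest, and every group overlapped with every other. The second Cd24a probe set also had its highest value in Hlth_1807 (6.85, over a range from 4.20).

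The Cd24a means stood in the order vehicle with HCC 5.93 ± 0.50 (SD, n = 4), vehicle without HCC 6.15 ± 0.48 (n = 5), healthy 6.21 ± 1.85 (n = 5), aspirin with clopidogrel 6.30 ± 0.53 (n = 6) and sulindac 6.50 ± 0.71 (n = 10). No neighbours differed beyond their spread (limma, adjusted p = 0.958, 0.999, 0.969 and 0.935). The largest of the 9 changes was 0.44 for sulindac against vehicle (SE 0.41, 95% interval -0.39 to 1.27, adjusted p = 0.771). Sulindac against healthy gave 0.29 (SE 0.48, adjusted p = 0.858), and 1.07 when Hlth_1807 alone was left out (adjusted p = 0.0939). Without the 4 arrays it was 1.42, or 2.67-fold, and passed the threshold (limma, adjusted p = 0.0162), as did 7.76% of all genes. Hlth_1807 and Hlth_1798, the highest healthy mice for Cd24a, are among the 4, and Cd24a was among the genes used to choose them. This call is thus not independent evidence. Without the 4 arrays vehicle against healthy turned from -0.16 to 1.03 (adjusted p = 0.123). Aspirin with clopidogrel against healthy then went from 0.09 to 1.22 (adjusted p = 0.0672).

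Markers of other cell types stood high in Hlth_1807 as well. The summed intensity of 8 neutrophil markers was 1312 there and at most 495 in the other 29 mice, with S100a8, S100a9, Ngp and Camp each highest in that mouse. The sum of 7 cholangiocyte and progenitor markers was 523 against at most 428 elsewhere, and Krt19, Krt7, Epcam, Cldn7 and Cftr were highest there. The sum of 10 stellate cell and fibroblast markers was 9554 against at most 6106. B cell markers did not stand apart (300 in Hlth_1807, with 352 the highest elsewhere), nor did red cell markers (6204, within a range of 3321 to 15174). In Hlth_1798, the mouse with the highest Ly6d, the sum of 8 lipid-associated macrophage markers was the highest of the 30 mice (6900). It hardly stood apart, with 6857 in a sulindac mouse and 6108 in a mouse given aspirin with clopidogrel. The cholangiocyte sum of Hlth_1798 was 187. The part of these cells in the levels of Ly6d and Cd24a was not tested.

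By group, the cholangiocyte sum ranged from 187 to 523 in healthy mice, 171 to 220 in vehicle without HCC, 185 to 234 in vehicle with HCC, 154 to 390 with sulindac and 182 to 428 with aspirin and clopidogrel. The neutrophil sum ranged from 186 to 1312 in healthy mice and from 195 to 495 in the other 4 groups. The B cell sum ranged from 204 to 300 in healthy mice and from 212 to 352 in the other 4 groups. The red cell sum ranged from 3321 to 6204 in healthy mice, 3913 to 8667 in vehicle without HCC, 4449 to 10918 in vehicle with HCC, 10939 to 14651 with sulindac and 11712 to 15174 with aspirin and clopidogrel. Both drug arms lay above the healthy and vehicle mice in it, by a narrow margin (10939 against 10918). Bright globin genes weigh most in this sum. With aspirin and clopidogrel the means were 12.75 for Hba-a1 and 12.45 for Hbb-b2, but 7.96 for Alas2, another red cell gene. The share of all genes that separate these groups was not computed. None of the markers of the first 3 lists passed the threshold in any of the 9 comparisons.

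Golm1 had values in healthy mice of 4.69 (Hlth_1804), 4.82 (Hlth_1968), 4.90 (Hlth_1965), 5.49 (Hlth_1798) and 5.61 (Hlth_1807). The last 2 were the highest of all 30 mice. Vehicle mice without HCC had 4.59 (Veh_low_794), 4.91 (Veh_low_1825), 4.92 (Veh_low_1819), 5.02 (Veh_low_2091) and 5.14 (Veh_low_1810), and those with HCC had 4.56 (Veh_high_2088), 4.59 (Veh_high_798), 4.79 (Veh_high_1770) and 5.00 (Veh_high_1831). Sulindac mice ran from 4.51 through 4.85 to 5.15 and mice given aspirin with clopidogrel from 4.35 through 4.75 to 5.05. The means were ordered from aspirin with clopidogrel (4.71 ± 0.27, SD) through vehicle with HCC (4.74 ± 0.20), sulindac (4.85 ± 0.18) and vehicle without HCC (4.92 ± 0.20) to healthy (5.10 ± 0.42), and no neighbours in this order differed beyond their spread (limma, smallest adjusted p = 0.914). The largest change was -0.39 for aspirin with clopidogrel against healthy (SE 0.15, 95% interval -0.70 to -0.08, unadjusted p = 0.0146, adjusted p = 0.181). It was -0.09 without the 4 arrays (adjusted p = 0.798). For vehicle with HCC against healthy it was -0.37 (SE 0.17, adjusted p = 0.498), and -0.07 without the 4 arrays. Without them the healthy mean was 4.80, below that of vehicle without HCC at 5.02, so the order of the means changed. The change against healthy turned from -0.27 to 0.06 for vehicle (limma, adjusted p = 0.899), from -0.19 to 0.22 for vehicle without HCC (adjusted p = 0.576) and from -0.25 to 0.05 for sulindac (adjusted p = 0.889).

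Afp, the fetal serum protein, stayed within a narrow band in all groups, those with HCC included. Healthy mice had 4.64 (Hlth_1804), 4.66 (Hlth_1965), 4.70 (Hlth_1968), 4.76 (Hlth_1807) and 5.08 (Hlth_1798), and vehicle mice without HCC had 4.68 (Veh_low_1819), 4.73 (Veh_low_794), 4.74 (Veh_low_2091), 4.78 (Veh_low_1825) and 5.13 (Veh_low_1810). Vehicle mice with HCC had 4.75 (Veh_high_798), 4.79 (Veh_high_2088), 4.85 (Veh_high_1831) and 4.94 (Veh_high_1770). The highest values were thus in mice labelled healthy or without HCC, and every group overlapped with the others. The healthy one, Hlth_1798, is among the 4 arrays that lay nearer the other group. Sulindac mice ran from 4.66 through 4.81 to 4.95 and mice given aspirin with clopidogrel from 4.59 through 4.78 to 4.84. The change between vehicle mice with and without HCC was 0.02 (SE 0.08), and all 9 changes lay between -0.07 and 0.06 (limma, smallest adjusted p = 0.707). Without the 4 arrays the change was 0.19 for vehicle against healthy (adjusted p = 0.145), 0.22 for vehicle without HCC against healthy (adjusted p = 0.198) and -0.06 for vehicle with against without HCC. The order of the means ran from 4.75 with aspirin and clopidogrel to 4.83 in vehicle with HCC, with no neighbours that differed beyond their spread (smallest adjusted p = 0.841). The array carries 5 Afp probe sets, and their highest values fell in 4 different mice: Veh_low_1810, AspClo_62, Hlth_1798 (for 2 of them) and Veh_high_1831.

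Igf2, the fetal growth factor, ran from 4.42 in AspClo_64 to 4.82 in Veh_low_794. The healthy mice had 4.51 (Hlth_1804), 4.62 (Hlth_1965), 4.63 (Hlth_1968), 4.63 (Hlth_1807) and 4.69 (Hlth_1798), vehicle mice without HCC lay between 4.60 and 4.82, and those with HCC between 4.50 and 4.77. Sulindac mice had a median of 4.66 (4.53 to 4.77) and mice given aspirin with clopidogrel 4.63 (4.42 to 4.80). The groups overlapped throughout, with means from 4.62 in healthy mice to 4.67 in vehicle without HCC. The 9 changes lay between -0.04 and 0.05 (limma, smallest adjusted p = 0.787).

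Dlk1, the hepatoblast membrane protein, ran from 4.25 in Veh_low_794 to 4.69 in both Veh_low_1819 and Hlth_1807. Healthy mice had 4.35 (Hlth_1965), 4.37 (Hlth_1968), 4.40 (Hlth_1804), 4.44 (Hlth_1798) and 4.69 (Hlth_1807), and vehicle mice with HCC had 4.43 (Veh_high_2088), 4.43 (Veh_high_1770), 4.45 (Veh_high_798) and 4.51 (Veh_high_1831). Sulindac mice had a median of 4.44 (4.27 to 4.61) and mice given aspirin with clopidogrel 4.43 (4.34 to 4.57). Here too the groups overlapped, with means between 4.39 and 4.45 and changes between -0.06 and 0.06 (limma, smallest adjusted p = 0.883).

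**Figure D3:**
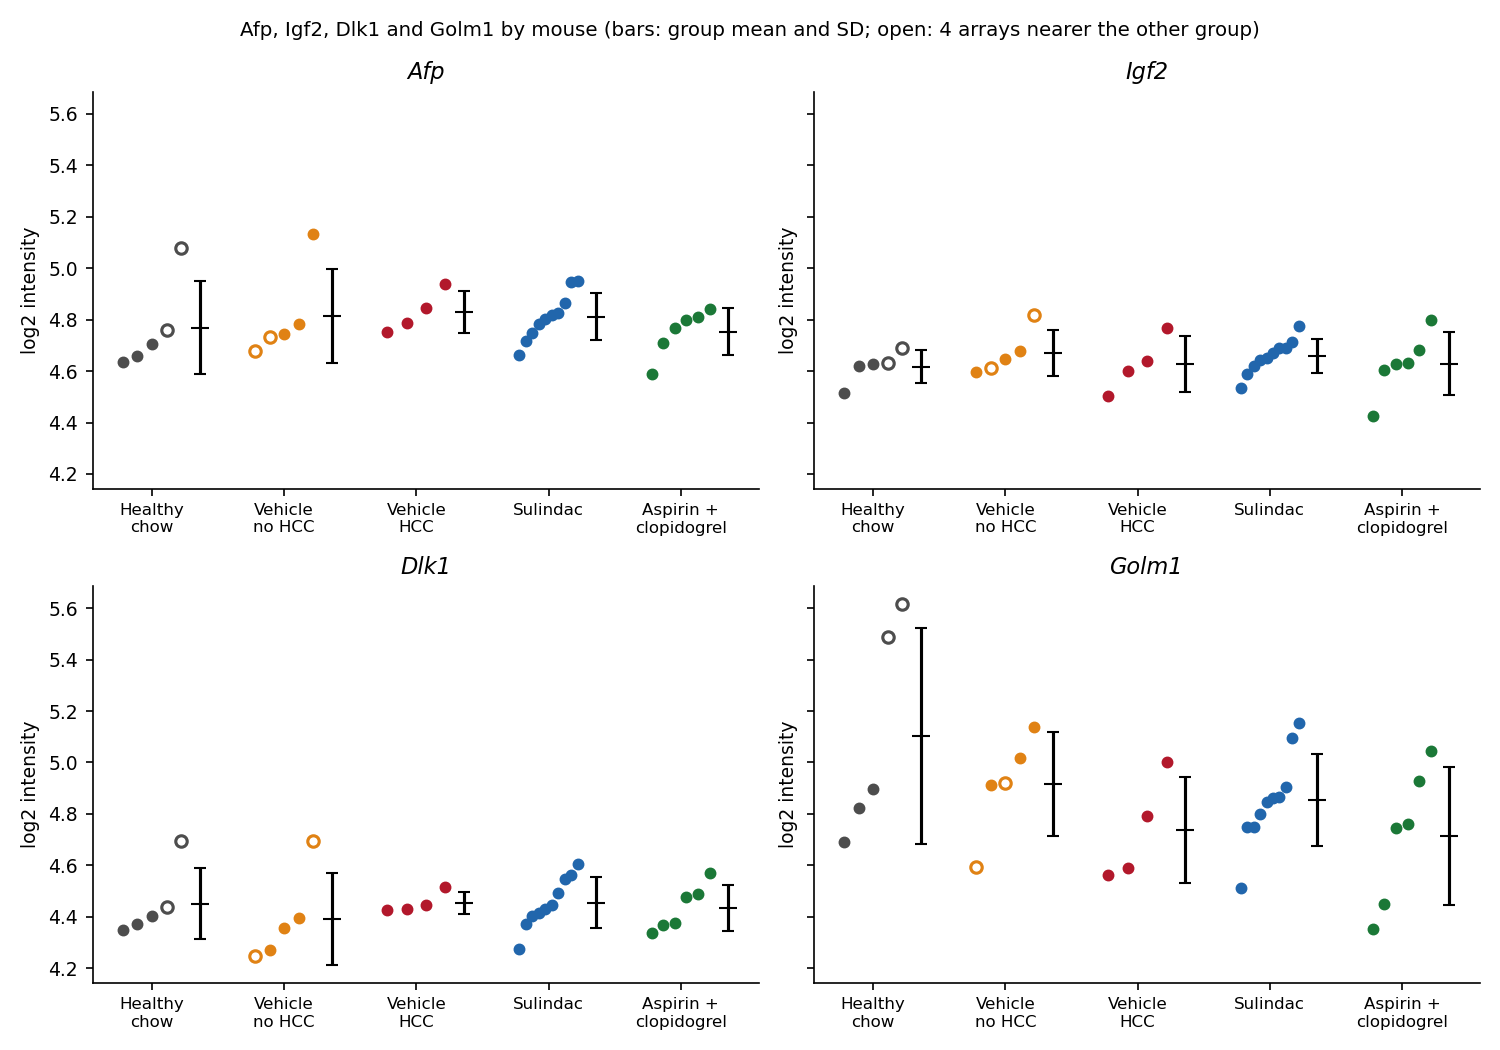
Log2 intensity of Afp, Igf2, Dlk1 and Golm1 in each mouse by group on a common axis, with group mean and SD as bars; open circles are the 4 arrays that lay nearer the other group. All groups overlap for each gene, the 2 highest Golm1 values (5.49 and 5.61) are in healthy mice, and the 2 highest Afp values (5.08 and 5.13) are in a healthy mouse and a vehicle mouse without HCC.

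Mouse by mouse, Afp and Ly6d varied together. Pearson's r was 0.63 over 30 mice (two-sided permutation p = 0.00013, adjusted p = 0.00195 over the 15 pairs of genes) and Spearman's rho was 0.62 (adjusted p = 0.0054). It was 0.51 without Hlth_1798 and Veh_low_1810, farthest from the median of Afp, 0.54 without Hlth_1965 and Hlth_1798, farthest from that of Ly6d, 0.63 for deviations from the group means and 0.58 without the 4 arrays. Afp spans only 0.54 log2 units in this relation and lies near the lower end of the array's signal. The relation rests on 1 of the 5 Afp probe sets, and the others were not compared with Ly6d.

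In 3 other pairs r passed the threshold and rho did not. Golm1 and Cd24a had r = 0.53 (permutation, adjusted p = 0.0299) and rho = 0.35 (adjusted p = 0.19), and r was 0.19 without Sulin_15 and Hlth_1807 and 0.29 without Hlth_1798 and Hlth_1807. Golm1 and Ly6d had r = 0.47 (adjusted p = 0.0364) and rho = 0.36 (adjusted p = 0.19), and r was 0.28 without Hlth_1798 and Hlth_1807 and 0.41 without Hlth_1965 and Hlth_1798. Ly6d and Cd24a had r = 0.45 (adjusted p = 0.0364) and rho = 0.39 (adjusted p = 0.19), and r was 0.42 without Hlth_1965 and Hlth_1798 and 0.31 without Sulin_15 and Hlth_1807. For deviations from the group means these 3 values of r were 0.62, 0.64 and 0.57. No pair with Igf2 or Dlk1 passed the threshold.

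**Figure D4:**
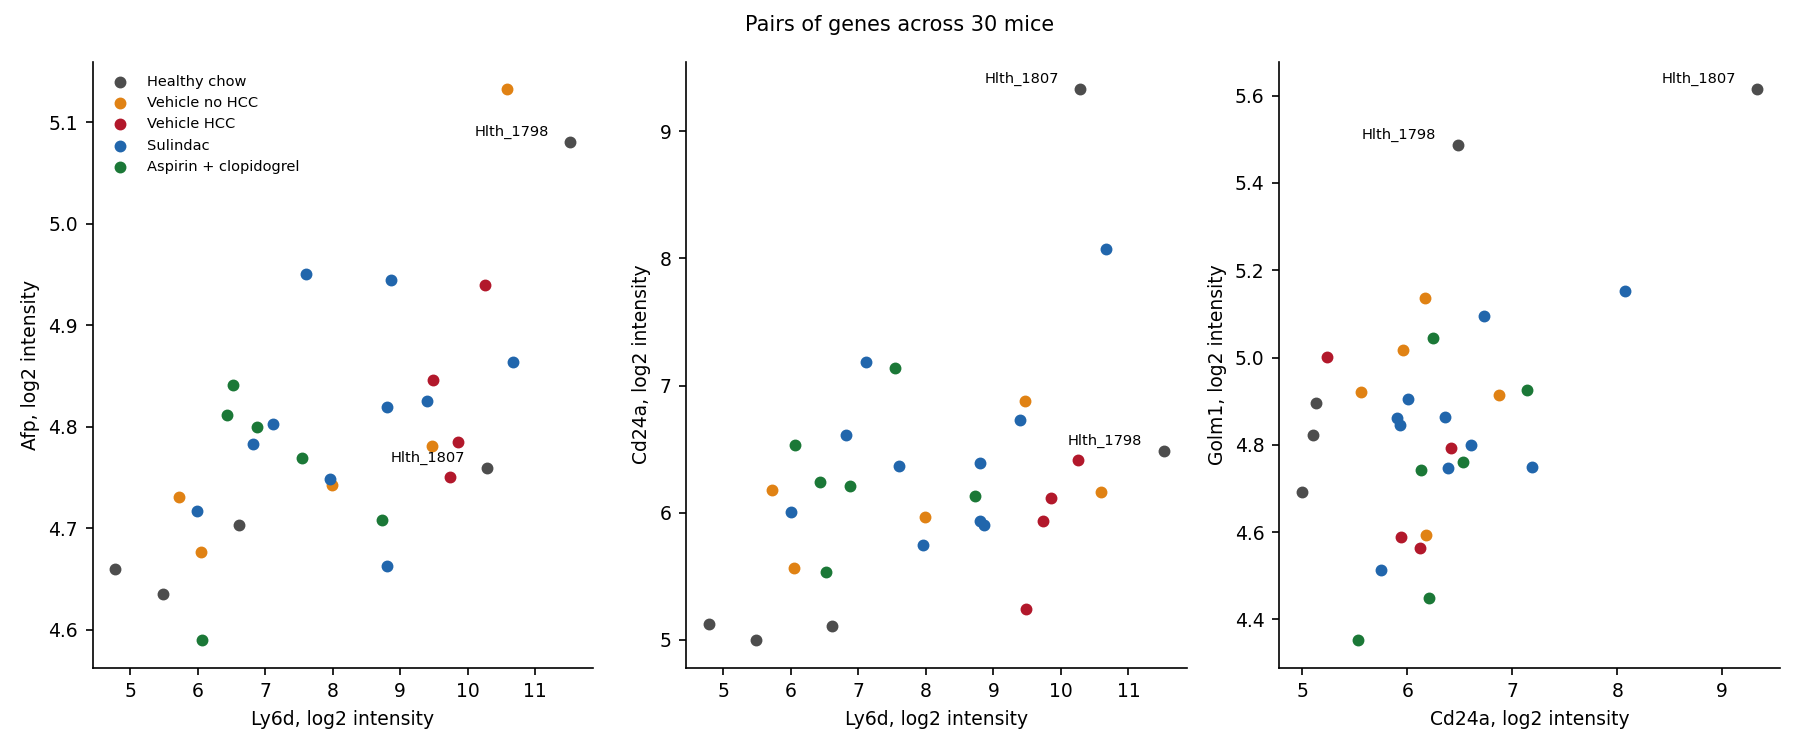
Log2 intensities of Afp against Ly6d (left), Cd24a against Ly6d (middle) and Golm1 against Cd24a (right), each point 1 of the 30 mice coloured by group. Afp and Ly6d tend to rise together (r = 0.63), with exceptions such as Hlth_1807 (10.29 for Ly6d, 4.76 for Afp). In the right panel Hlth_1807, at 9.33 for Cd24a and 5.61 for Golm1, stands far from the rest.

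Among 8332 genes with a mean at or above the median, those whose levels followed Ly6d most closely over the 30 mice were Tmem176b, a membrane protein (r = 0.93), Cstb, the cathepsin inhibitor cystatin B (r = 0.93), and Anxa5, the phospholipid-binding annexin A5 (r = 0.92). These values of r, given as a description, were 0.91, 0.92 and 0.91 without the 4 arrays. All 3 genes ranged less than Ly6d: Tmem176b from 10.81 to 11.85, Cstb from 10.18 to 11.65 and Anxa5 from 10.13 to 11.95. Those closest to Cd24a were Cbx6, a Polycomb protein (r = 0.88), Pamr1, a secreted protein with a protease-like domain (r = 0.87), and Pkhd1, the fibrocystin of bile duct and kidney tubule cells (r = 0.86). These values were 0.77, 0.79 and 0.75 without the 4 arrays, and all 3 genes were highest in Hlth_1807, where Pkhd1 reached 7.90.

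**Figure D5:**
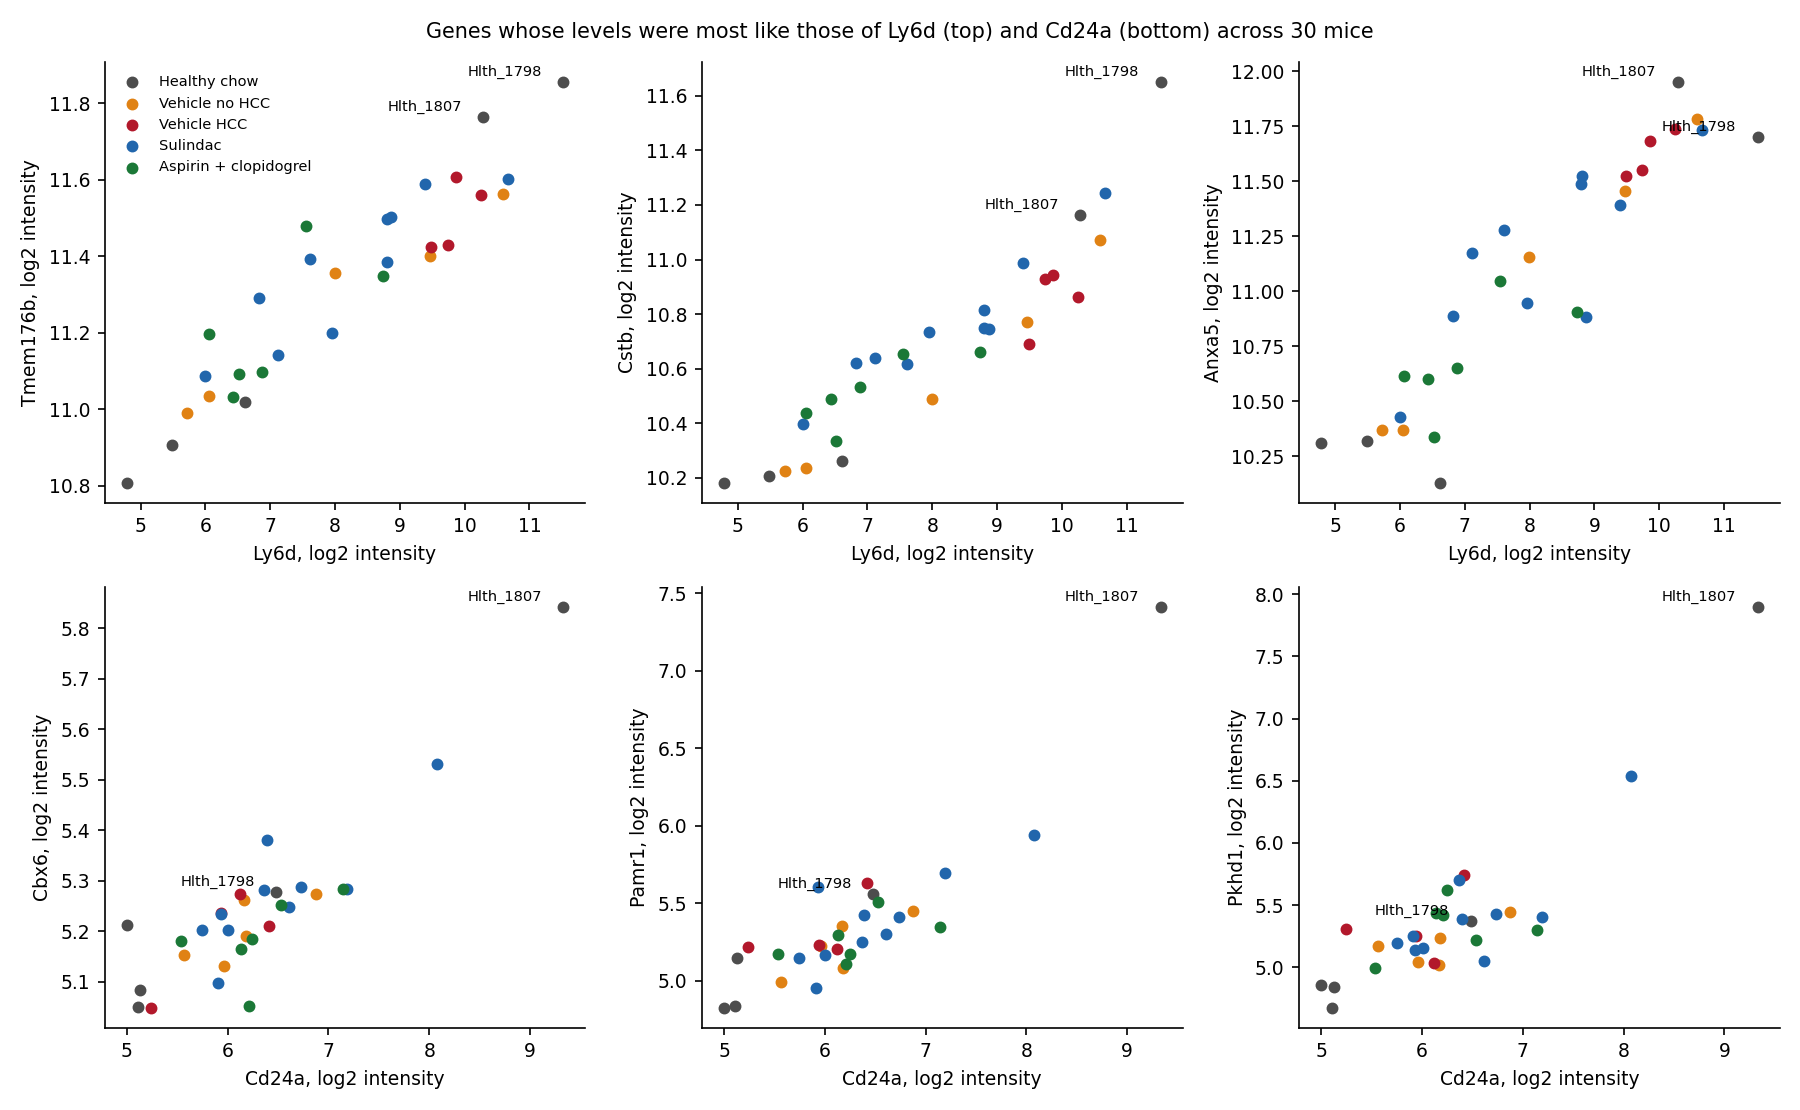
Log2 intensity of the 3 genes most like Ly6d (top row) and the 3 most like Cd24a (bottom row) against that gene, each point 1 of the 30 mice coloured by group. The Ly6d relations (r from 0.92 to 0.93) hold over the whole range of mice, while in the Cd24a relations (r from 0.86 to 0.88) Hlth_1807 lies far above the other mice.

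Golm1 was followed most closely by Cdc42se1 (r = 0.83), Peak1 (r = 0.76) and Amot (r = 0.75), and Afp by Aldoa (r = 0.71), Nup205 (r = 0.68) and Igsf11 (r = 0.67). The closest genes were Wipi1 (r = 0.73), Tnrc6a (r = 0.60) and Son (r = 0.59) for Dlk1, and Lars2 (r = 0.51), Nfatc3 (r = 0.50) and Chtf8 (r = 0.50) for Igf2. None of these 18 genes passed the threshold in any of the 9 comparisons (limma, smallest adjusted p = 0.237, for Igsf11).

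Of 20 further genes of the fetal and progenitor liver programme, 13 were measured, and 1 passed the threshold. With aspirin and clopidogrel, 1.96% of all genes passed against vehicle and 0.877% against sulindac. A count of 1 gene is not read as a result about the list. Prom1, the progenitor surface protein CD133, ran from 4.60 to 8.27 with aspirin and clopidogrel (SD 1.59) and from 4.36 to 4.84 in vehicle mice. In healthy mice Prom1 ran from 4.45 to 6.64, and aspirin with clopidogrel against healthy did not pass. With aspirin and clopidogrel, Prom1 rose by 1.99 log2 units against vehicle (SE 0.41, limma's adjusted p = 0.00976, at most 0.0440 without any single mouse) and by 1.97 against sulindac (adjusted p = 0.0149). The second call was lost without AspClo_61 or AspClo_58 (adjusted p up to 0.0648). The median change of the 13 genes against vehicle was 0.02, against 0.00172 over all genes. None of the 13 passed for vehicle against healthy, or with against without HCC. Their summed intensity was highest in Hlth_1807 (1265) and next in Hlth_1798 (705).

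Of 16 genes of the imprinted network that includes Igf2 and Dlk1, 12 were measured and 1 passed, where 1.96% of all genes did. Cdkn1c, an inhibitor of cyclin-dependent kinases, rose with aspirin and clopidogrel by 0.34 against vehicle (SE 0.08, limma's adjusted p = 0.0295). This call was lost without Veh_low_1825, AspClo_58, AspClo_61, AspClo_63 or AspClo_64 (adjusted p up to 0.107). The Cdkn1c means (4.71 with aspirin and clopidogrel, 4.37 in vehicle mice) lay below the mean of the median gene (4.90). A low signal and none are hard to tell apart there. Of 20 regulators that act on Afp, H19 and Gpc3 after birth, 17 were measured and 1 passed. With aspirin and clopidogrel, 1.96% of all genes passed against vehicle and 2.77% against healthy. Nr5a2, a nuclear receptor of hepatocytes that binds the Afp promoter, rose by 0.55 against vehicle (SE 0.13, adjusted p = 0.0201) and by 0.55 against healthy (SE 0.14, adjusted p = 0.0346). The first call was lost without AspClo_58, AspClo_61 or AspClo_63 and the second also without Hlth_1807 (adjusted p up to 0.0699 and 0.105). Without the 4 arrays the change was 0.63 against vehicle (adjusted p = 0.000217) and 0.31 against healthy (adjusted p = 0.111). The median change against vehicle was 0.01 over the imprinted genes and -0.02 over the regulators.

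Of the 12 lists looked at, 6 had no gene past the threshold in the 9 comparisons: markers of cholangiocytes (7 measured), hepatocytes (10), B cells (9), neutrophils (8), stellate cells (10) and lipid-associated macrophages (8). Of 6 red cell markers, Hba-a1 and Hbb-b2, which encode globin chains, rose in both drug arms against vehicle (Hba-a1 by 1.08 with sulindac and 1.21 with aspirin and clopidogrel, limma's adjusted p = 0.00469 and 0.00296) and against healthy. Of all genes, 0.199% passed for sulindac and 1.96% for aspirin with clopidogrel against vehicle. The shares against healthy were 2.98% and 2.77%. Alas2, the heme synthesis enzyme of red cells, fell by 1.11 with aspirin and clopidogrel against vehicle (adjusted p = 0.0325) and by 1.23 against healthy. The Alas2 calls were lost without AspClo_58, AspClo_61, AspClo_63 or AspClo_64 and, in turn, without Veh_low_1810, Veh_low_1825 or Veh_high_1831 or without Hlth_1804, Hlth_1965 or Hlth_1968 (adjusted p up to 0.121). Without the 4 arrays the Alas2 change was -1.02 against vehicle (adjusted p = 0.0296) and -1.66 against healthy (adjusted p = 0.00473). Of 9 proliferation markers, Top2a fell with aspirin and clopidogrel by 0.22 against healthy (adjusted p = 0.0267, and up to 0.0937 without Hlth_1807, Hlth_1965, AspClo_58 or AspClo_61). Without the 4 arrays the change was -0.16 (adjusted p = 0.137). The Top2a means (4.53 with aspirin and clopidogrel, 4.75 in healthy mice) also lay below that of the median gene (4.90).

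Of 8 lipid droplet genes, 4 fell with aspirin and clopidogrel against vehicle, where 1.96% of all genes passed. The median change of the 8 was -1.06. Cidea, a lipid droplet fusion protein, fell by 3.66 (SE 0.69, limma's adjusted p = 0.00516) and Pparg, the nuclear receptor of fat storage, by 1.13 (adjusted p = 0.000924), and both calls held without any single mouse. Plin5 and Mogat1 fell too (adjusted p = 0.0251 and 0.0421). The Plin5 call was lost without Veh_low_1810, Veh_low_1825, Veh_low_2091, AspClo_58 or AspClo_61. The Mogat1 call was lost without any of these, or without Veh_high_798, Veh_high_1770, Veh_high_1831, AspClo_60, AspClo_63 or AspClo_64 (adjusted p up to 0.111). Without the 4 arrays the change against vehicle was -1.59 for Mogat1 (adjusted p = 0.000227) and -1.02 for Plin5 (adjusted p = 0.0101). Against healthy, Plin5 fell by 1.18 with aspirin and clopidogrel, and Pparg rose by 1.16 in vehicle mice with HCC (adjusted p = 0.0359, and up to 0.200 without Hlth_1804, Hlth_1965, Hlth_1968, Veh_high_1831, Veh_high_2088 or Sulin_26). Without the 4 arrays these changes were -1.04 for Plin5 (adjusted p = 0.0367) and 1.27 for Pparg (adjusted p = 0.00257).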

How the data were processed

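RNA from non-tumour or healthy liver of 30 mice was measured on 1-colour Affymetrix mouse arrays. The authors deposited 1 intensity per probe set, after RMA with quantile normalization (ExpressionFileCreator), as the design text of the series and the submitters' processing notes state; versions are not given in the sources used here. Log2 was taken here. Of 45141 probe sets, 104 are controls, 28898 have 1 gene symbol, 551 several and 15588 none. Of the probe sets with 1 symbol, 28689 matched a gene of RefSeq (GRCm38.p6). Precision is limited by how many arrays there are.

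The 30 arrays entered 1 linear model with 5 group means (limma 3.58.1, R 4.3.3; 25 residual and 2.37 prior degrees of freedom), with Benjamini-Hochberg adjustment over 17097 genes and a threshold of 0.05. The vehicle mean is that over its 9 mice; the design text lists 4 vehicle mice, the labels 9, and the labels were followed. Replicates are separate mice; no batch is labelled. Distance between arrays was the root mean square difference of log2 values. Permutations used numpy 2.4.6 in Python 3.11.15. The fit was tested on simulated data.

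The genes and lists were chosen with earlier results of these data known. Named genes are the oncofetal genes on the array, the 3 genes most correlated with each, and list genes past the threshold. Of list genes that did not pass, those with the smallest F test p were left unnamed for brevity, and some markers are named for their level in 1 mouse, chosen after their values were seen. Alternatives tried were the groups in the fit, the probe set, median scaling, a filter on dim genes, the prior, array weights, 4 arrays left out, and each mouse left out.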

Additional observations from a re-analysis of the deposited data

Results flagged for a closer look

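Of 30 sets of values (6 genes in 5 groups), 3 held a mouse far from the others of its group, by the gap to its nearest neighbour as a share of the group's range (Dixon's critical value 0.710 for 5 mice). Chance flags about 1 group in 20. Afp in healthy mice had a share of 0.722, with Hlth_1798 at 5.08 and the next mouse at 4.76. Afp in vehicle mice without HCC had a share of 0.770, with Veh_low_1810 at 5.13 and the next at 4.78. Dlk1 in healthy mice had a share of 0.743, with Hlth_1807 at 4.69 and the next at 4.44.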

How the results depend on the processing

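Over 2070 recomputed changes of the 6 genes in the 9 comparisons, 1954 kept their direction and side of the threshold, 7 came to pass it and 109 reversed, none of these past the threshold. No paired analysis was possible because the groups share no replicate numbers in the labels. The number of genes called stayed at 0 of 6 without any single mouse. Without the 4 arrays it was 1 for vehicle against healthy (5.61% of all genes passed) and for aspirin with clopidogrel against vehicle (4.79%). It was also 1 for vehicle without and with HCC against healthy (2.95% and 5.01%) and for the F test (10.5%). For sulindac against healthy it was 2 (7.76%). The 4 arrays were chosen from measured levels, so these counts are not independent evidence. With array weights it was 1 for vehicle with HCC against healthy (Ly6d, 3.59, limma's adjusted p = 0.0338), a setting in which 668 of 17097 genes (3.91%) passed in that comparison. Cd24a reversed with array weights to 0.68 for vehicle, 0.75 for vehicle without HCC and 0.59 for vehicle with HCC, each against healthy, and without the 4 arrays to 1.03, 1.26 and 0.85. Ly6d for aspirin with clopidogrel against healthy reversed to 0.74 and 1.40 in these settings. On its other probe set Cd24a was 0.022 for vehicle with against without HCC.

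The dim genes turned sign at small values. Without the 4 arrays Golm1 was, against healthy, 0.055 (vehicle), 0.22 (vehicle without HCC) and 0.049 (sulindac), and -0.0061 for sulindac against vehicle. Dlk1 was then 0.030 for vehicle and 0.061 for aspirin with clopidogrel against healthy, and Afp 0.087 for the latter and -0.055 for vehicle with against without HCC. With array weights, against healthy, Afp and Dlk1 were 0.042 and 0.034 for aspirin with clopidogrel, Dlk1 0.011 for vehicle and Golm1 0.0063 for vehicle without HCC. With array medians set equal, Dlk1 was -0.00070 for sulindac against healthy. Averaged over all probe sets, Igf2 was -0.046 for sulindac against vehicle, 0.0078 between the drug arms, and -0.0072 and -0.0021 for vehicle with HCC and sulindac against healthy, and Afp -0.018 for vehicle without HCC against healthy. The second Igf2 probe set gave -0.098 and 0.045 in the first 2 of these and, against healthy, -0.026 (vehicle with HCC), -0.045 (sulindac) and -0.00031 (aspirin with clopidogrel).

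The other Afp probe sets gave, against healthy, -0.074 and -0.0092 (vehicle), -0.081, -0.067 and -0.0030 (vehicle without HCC), -0.064 (vehicle with HCC), -0.065 and -0.023 (sulindac) and 0.081 (aspirin with clopidogrel). They gave 0.026 and 0.0083 for sulindac and 0.065 for aspirin with clopidogrel against vehicle, 0.039 between the drug arms and -0.0042 for vehicle with against without HCC. The cause was not tested.
Without single mice, Cd24a ran from -0.46 to 0.62 for vehicle against healthy, -0.38 to 0.0075 for vehicle with against without HCC, and, against healthy, from -0.36 to 0.72 (vehicle without HCC), -0.58 to 0.50 (vehicle with HCC), -0.017 to 1.07 (sulindac) and -0.21 to 0.87 (aspirin with clopidogrel). Ly6d ran, against healthy, from -0.51 to 1.17 (vehicle without HCC), -0.27 to 1.41 (sulindac) and -1.45 to 0.24 (aspirin with clopidogrel). Afp ran from -0.019 to 0.098 for vehicle with against without HCC, -0.027 to 0.030 for sulindac against vehicle and, against healthy, -0.035 to 0.12 (vehicle without HCC) and -0.047 to 0.064 (aspirin with clopidogrel). Igf2 ran from -0.012 to 0.027 for sulindac and -0.057 to 0.018 for aspirin with clopidogrel against vehicle, -0.064 to 0.011 between the drug arms and, against healthy, -0.035 to 0.053 (vehicle with HCC) and -0.023 to 0.052 (aspirin with clopidogrel). Dlk1 ran from -0.011 to 0.050 for aspirin with clopidogrel against vehicle, -0.046 to 0.00061 between the drug arms and, against healthy, -0.066 to 0.029 (vehicle), -0.13 to 0.0018 (vehicle without HCC), -0.023 to 0.063 (vehicle with HCC), -0.022 to 0.064 (sulindac) and -0.042 to 0.045 (aspirin with clopidogrel). Golm1 ran from -0.017 to 0.055 for sulindac against vehicle.

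Over all genes, the number called without single mice ran from 1 to 36 for vehicle against healthy, 0 to 33 for vehicle with against without HCC, 19 to 148 for sulindac against vehicle, 123 to 571 for aspirin with clopidogrel against vehicle and 54 to 270 between the drug arms. Against healthy it ran from 0 to 1 (vehicle without HCC), 1 to 110 (vehicle with HCC), 272 to 732 (sulindac) and 283 to 729 (aspirin with clopidogrel), and in the F test from 475 to 884. Other settings also moved these counts by more than 1.5 times. In the order of that list (vehicle against healthy first, the F test last) the counts with all arrays were 2, 15, 34, 335, 150, 0, 17, 510, 473 and 678. They were 375, 14, 206, 613, 407, 12, 668, 1614, 1220 and 1930 with array weights, and 959, 14, 143, 819, 343, 505, 856, 1327, 928 and 1788 without the 4 arrays. With only the compared groups in the fit they were 0, 0, 91, 111, 239, 0, 1, 572 and 74, and with dim genes left out 1, 17, 88, 386, 217, 0, 34, 661, 599 and 830. Averaging over probe sets gave 5 for vehicle against healthy, and a trended robust prior gave 10 for vehicle with against without HCC. The signal of Afp, Igf2, Dlk1 and Golm1, below that of the median gene, limits what changes of these genes could be seen.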
